A study of Mus musculus with 10 samples.

Results

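The Dlx genes (Dlx1 to Dlx6) and the Msx genes (Msx1 and Msx2) encode homeodomain transcription factors of the skull, jaw, tooth and limb. They were taken by name from the deposited table, which held all 8 of them among its 29583 genes, and their levels were followed in mouse MC3T3-E1 cells given β-ecdysterone, a plant sterol. MC3T3-E1 cells are osteoblast precursors derived from the skull of a mouse, here subclone 14, so that every library came from 1 clonal line grown in standard medium. The labels give the strain as C57BL/6 and the age of the source as newborn, and they name bone marrow mesenchymal stem cells as the source of the RNA although each title reads MC3T3-E1. The 10 libraries comprised cells at 0 μM for 5 days (1 library) and for 10 days (1 library), cells at 100, 150 and 200 μM for 5 days (3 libraries) and for 10 days (3 libraries), and 2 libraries labelled only as untreated, with no time, which carry the codes A-5 and B-4.

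The homeodomain is a DNA-binding fold whose recognition helix reads a short AT-rich core, and Dlx and Msx proteins recognise much the same core. In bone-forming cells Msx proteins mostly act as repressors that hold back differentiation, whereas Dlx3 and Dlx5 mostly act as activators of genes such as Runx2, Sp7 and Ibsp. BMP signals are well known to induce Msx1, Msx2 and Dlx5. The Dlx genes lie in pairs that face each other and share regulatory elements, while the Msx genes stand alone.

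In GRCm38, the pair Dlx1 (ENSMUSG00000041911, chromosome 2, 71528113 to 71533981, plus strand) and Dlx2 (ENSMUSG00000023391, 71543408 to 71546754, minus strand) was separated by 9.4 kb. Dlx3 (ENSMUSG00000001510, chromosome 11, 95120119 to 95125296, plus strand) and Dlx4 (ENSMUSG00000020871, 95140447 to 95146263, minus strand) were separated by 15.2 kb. Dlx6 (ENSMUSG00000029754, chromosome 6, 6863334 to 6868568, plus strand) and Dlx5 (ENSMUSG00000029755, 6877805 to 6882085, minus strand) were separated by 9.2 kb. Msx1 lay on chromosome 5 (ENSMUSG00000048450, 37820485 to 37824583, minus strand) and Msx2 on chromosome 13 (ENSMUSG00000021469, 53466884 to 53473074, minus strand). Each is a protein-coding gene, and the values below are for whole genes, all exons together.

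The homeobox of Dlx5 and Dlx6 is shown because this pair held the highest levels among the Dlx genes at 0 μM. A further reason is that similar coding sequence could share reads. Each run has 180 bases of coding sequence on the gene's own strand, read from the GENCODE M21 transcript, and the capitals mark the 18 bases that encode the conserved core of the recognition helix.
Dlx5: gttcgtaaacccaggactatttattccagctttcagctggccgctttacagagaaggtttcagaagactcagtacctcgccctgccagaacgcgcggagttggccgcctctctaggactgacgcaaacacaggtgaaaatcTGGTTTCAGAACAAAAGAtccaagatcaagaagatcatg
Dlx6: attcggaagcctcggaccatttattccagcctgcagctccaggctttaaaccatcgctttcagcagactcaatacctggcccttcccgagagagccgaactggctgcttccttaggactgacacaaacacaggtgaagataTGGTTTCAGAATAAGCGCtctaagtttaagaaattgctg
The Dlx5 and Dlx6 homeoboxes were identical at 132 of 180 bases (73.3%) and, once translated, at 51 of 60 residues (85.0%). Between any 2 of the 6 Dlx homeodomains, 78.3% to 96.7% of residues were identical over 15 pairs. Over whole transcripts, the longest run of identical bases was 18 for Dlx5 and Dlx6, and the longest over the 15 Dlx pairs was 23. How reads that fit more than 1 gene were counted is not given in the sources used here.

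The promoters of Msx1 and Msx2 are shown as well, since Msx1 was called and its paralog Msx2 was not. Each spans 250 bases before to 50 after the RefSeq start in GRCm38.p6, chr5:37824536-37824835 and chr13:53472731-53473030, both on the minus strand. Capitals mark TAATT, the letters searched here for the homeodomain core, and CCAAT, on either strand (AATTA and ATTGG).
Msx1 promoter: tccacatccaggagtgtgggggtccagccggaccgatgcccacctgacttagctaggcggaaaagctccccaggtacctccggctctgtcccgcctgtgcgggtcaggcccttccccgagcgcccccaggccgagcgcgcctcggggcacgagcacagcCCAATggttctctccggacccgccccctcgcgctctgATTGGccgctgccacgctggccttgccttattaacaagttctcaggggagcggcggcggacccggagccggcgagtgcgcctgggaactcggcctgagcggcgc
Msx2 promoter: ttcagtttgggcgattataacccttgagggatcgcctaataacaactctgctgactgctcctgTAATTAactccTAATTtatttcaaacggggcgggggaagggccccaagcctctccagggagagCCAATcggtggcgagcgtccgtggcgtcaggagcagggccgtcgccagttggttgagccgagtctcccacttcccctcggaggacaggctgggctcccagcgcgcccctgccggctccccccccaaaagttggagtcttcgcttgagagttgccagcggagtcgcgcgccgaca
The Msx2 window held 3 matches to TAATT on either strand, of which 2 overlap in the letters TAATTA, and the Msx1 window held none. The shorter letters TAAT or ATTA occur in both windows, so this contrast depends on the letters searched. TAATT, on either strand, was present in 27.0% of 32851 promoters of this length. CCAAT matched at 2 places in the Msx1 window and at 1 in the Msx2 window, and 37.4% of promoters held it. These are matches of letters and not measured sites.

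The libraries held between 27108562 and 58218009 counts. Normalized read counts are given as CPM, counts scaled to a common library size by the TMM method, and levels are compared between genes only as FPKM, which also divides by transcript length. With 1 library per dose and day, the 3 doses stood as the replicates of treated cells on each day, so that the spread includes any effect of dose. Osteoblast identity was checked on 12 genes, all of which were tested and none of which stayed under 1 FPKM in all 8 libraries with a dose. At 0 μM, however, Alpl averaged 0.0112 FPKM, Ibsp 0.332 and Bglap 0.685. The limit therefore does not show that all 12 genes were expressed at 0 μM. Col1a1, the main collagen of bone, averaged 9428 ± 1868 CPM (SD, n = 6) under treatment and 9310.4 CPM at 0 μM, whereas Alpl, which encodes alkaline phosphatase, had 0 and 2 counts at 0 μM. The untreated libraries did not stand together. Over 12942 genes, A-5 had a median Spearman correlation of 0.977 with the 0 μM libraries and 0.936 with treated libraries, and B-4 had 0.910 and 0.947. They were therefore kept out of the main tests.

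Dlx5, a BMP-induced activator of osteoblast genes, had the highest level of the 8 genes in each of the 10 libraries, and Dlx3 had the lowest. At 0 μM the FPKM of Dlx5 was 14.6 on day 5 and 16.0 on day 10. Dlx6, which acts with Dlx5 in the lower jaw, followed with 3.17 and 3.09. Dlx1 (2.01 and 2.54), Msx1 (2.14 and 1.98), Msx2 (1.42 and 2.48) and Dlx2 (1.54 and 2.17) overlapped each other, so that their order at 0 μM was not beyond the spread. Dlx4, which is best known from the placenta, had an FPKM of 0.323 and 0.199 and Dlx3, a regulator of hair, tooth and bone, one of 0.0506 and 0.0399.

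In treated cells the second place in FPKM went to Msx1. Its level of 7.33 ± 2.78 FPKM (SD, n = 6) lay between those of Dlx5 (17.1 ± 2.70) and Dlx2 (2.38 ± 0.469), and its 6 values overlapped neither. Dlx2, Dlx6 (2.22 ± 0.613) and Dlx1 (1.90 ± 0.406) overlapped each other, as did Dlx1 and Msx2 (1.21 ± 0.488). Dlx4 (0.316 ± 0.123) and Dlx3 (0.129 ± 0.081) also overlapped across libraries, although Dlx4 was above Dlx3 within each of them.

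**Figure D1:**
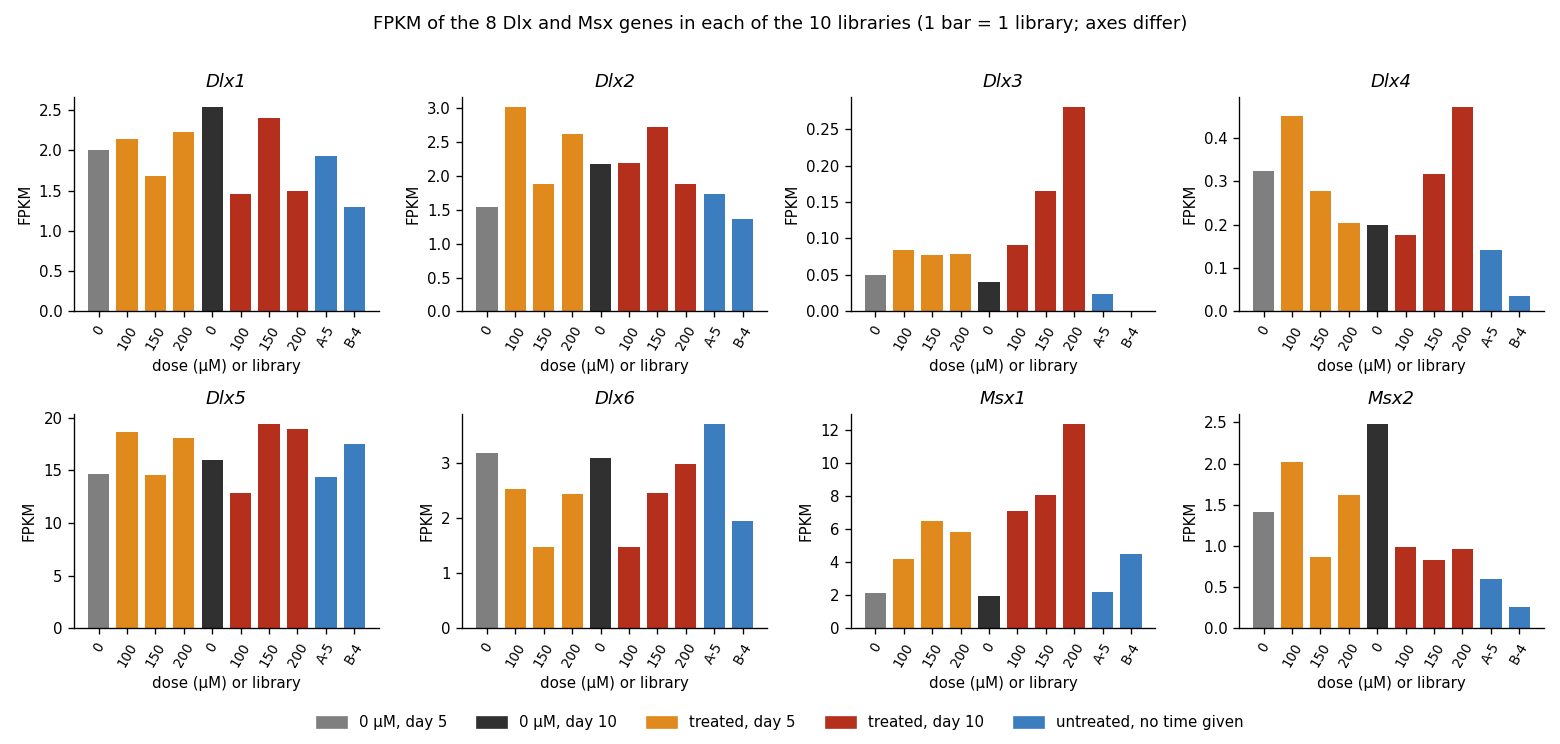
FPKM of each gene (vertical axes, which differ between panels) in the 10 libraries, by dose in μM or library code, with colours for day and treatment. Each bar is 1 library; the 6 treated bars of Msx1 (4.18 to 12.3) stand above both 0 μM bars (2.14 and 1.98), and Dlx5 varies between 12.9 and 19.4.

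Msx1, a BMP target that represses differentiation genes, was the member that rose under β-ecdysterone. At 0 μM it had 4.54 CPM on day 5 and 4.22 CPM on day 10. On day 5 it had 9.12, 13.7 and 12.6 CPM at 100, 150 and 200 μM, and on day 10 it had 16.7, 18.3 and 27.2 CPM at the same doses. All 6 treated libraries lay above both 0 μM libraries, as they did for 27.8% of all genes tested. The lowest treated library was at 2.0 times and the highest at 6.38 times the 0 μM level of its own day. Behind these values stood between 134 and 1410 counts. Over both days the log2 fold change came to 1.79 ± 0.28 (standard error), with a 95% interval of 1.15 to 2.42, or 3.45-fold, and edgeR's quasi-likelihood test gave an adjusted p = 7.9e-04.

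Calls required more than 2-fold change (beyond 1 on the log2 scale) with adjusted p under 0.05, and Msx1 was the 1 member of 8 that met both. Across the 16794 genes tested 19.4% were called, 13.4% as higher and 5.98% as lower, so the share of members called was near the background. The median log2 fold change was 0.05 over all genes. All 8 members passed the filter on low counts, Dlx3 through its treated libraries of day 10. In bulk RNA a change in the number of cells that express a gene and a change in RNA per cell cannot be told apart. When A-5 and B-4 replaced the 0 μM libraries, Msx1 was not called, at a log2 fold change of 1.15 ± 0.43 (edgeR, adjusted p = 0.0866).

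Msx2, the paralog of Msx1 that acts in skull sutures, had no such rise. It had 3.80 CPM at 0 μM on day 5 and 6.67 CPM on day 10. The treated libraries held 5.59, 2.30 and 4.46 CPM on day 5 and 3.00, 2.41 and 2.70 CPM on day 10 at 100, 150 and 200 μM. On day 5 they lay on both sides of 0 μM, and on day 10 all 3 lay below it, at 0.454, 0.366 and 0.409 of its level. Over both days its log2 fold change was -0.69 ± 0.36 (95% interval -1.5 to 0.13, adjusted p = 0.153 from edgeR). This value rested on the day 10 library at 0 μM. Leaving that library out gave a log2 fold change of 0.08 (adjusted p = 0.913, edgeR), and leaving out the day 5 library at 0 μM gave -1.32, a call (adjusted p = 0.0316, edgeR). The lowest values of Msx2 among the 10 libraries were those of untreated A-5 (1.64 CPM) and B-4 (0.768 CPM), and with these in place of 0 μM the sign turned to 1.49 (adjusted p = 0.0504, edgeR).

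The FPKM ratio of Msx1 to Msx2 was 1.51 at 0 μM on day 5 and 0.800 on day 10. In treated cells it was 2.07, 7.56 and 3.60 on day 5 and 7.16, 9.68 and 12.8 on day 10, at 100, 150 and 200 μM. The 6 treated ratios lay above both 0 μM ratios. Untreated A-5 had a ratio of 3.67 and B-4 one of 16.9, the highest of the 10. The ratio was chosen after its values were seen and was not tested.

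**Figure D2:**
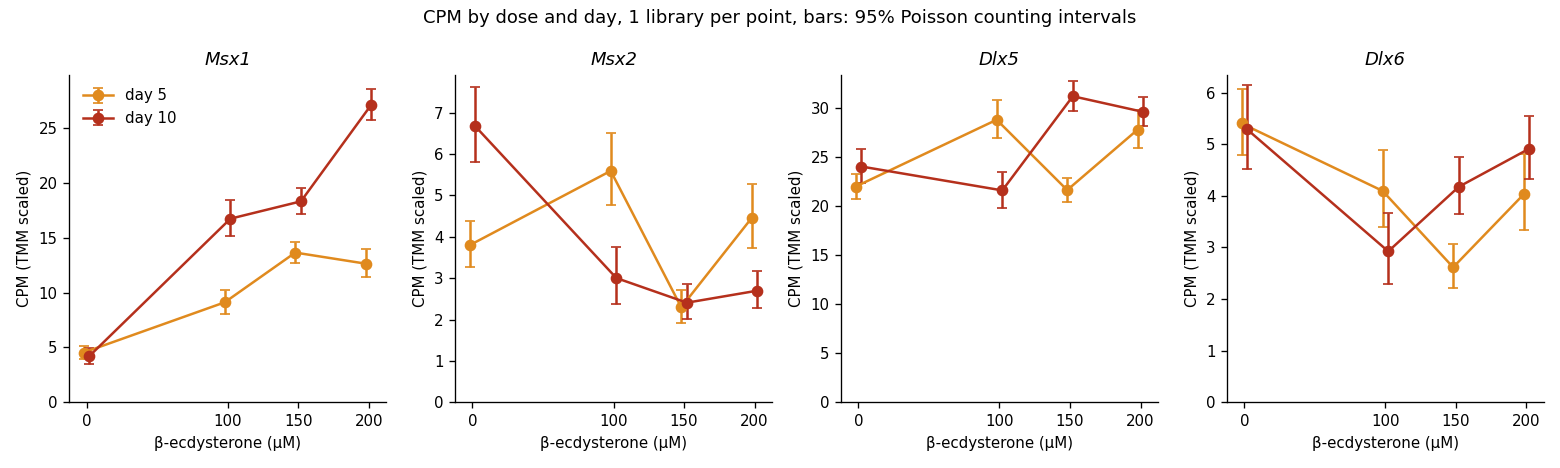
Normalized read counts (CPM, vertical axis) of Msx1, Msx2, Dlx5 and Dlx6 against the β-ecdysterone dose in μM on day 5 and day 10; each point is 1 library and the bars are 95% Poisson intervals, which cover counting error only. On day 10 Msx1 runs from 4.22 CPM at 0 μM to 27.2 CPM at 200 μM, while Msx2 is below its 0 μM value of 6.67 CPM at each dose.

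Dlx5 stayed high in all libraries. Its 0 μM libraries held 22.0 and 24.0 CPM on days 5 and 10, and the treated libraries 28.8, 21.6 and 27.8 CPM on day 5 and 21.6, 31.2 and 29.6 CPM on day 10. The groups overlapped, with 4 of 6 treated libraries above 0 μM of their day. The log2 fold change was 0.21 ± 0.16 (edgeR, adjusted p = 0.318), and its 95% interval of -0.15 to 0.56 stayed within 2-fold in either direction. Of the 8 members Dlx5 had the narrowest interval.

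Dlx6 had 5.40 and 5.29 CPM at 0 μM on days 5 and 10. Its treated libraries held 4.09, 2.61 and 4.03 CPM on day 5 and 2.92, 4.17 and 4.91 CPM on day 10, at 100, 150 and 200 μM. All 6 lay below both 0 μM libraries, by less than 2-fold in 5 of them, and 24.8% of all genes tested had treated libraries wholly below 0 μM in the same way (52.6% wholly below or above). The difference on the log2 scale was -0.51 ± 0.24 (95% interval -1.05 to 0.03, adjusted p = 0.112 from edgeR). Although the pair is neighbouring, the FPKM ratio of Dlx6 to Dlx5 was 0.217 and 0.193 at 0 μM and between 0.101 and 0.157 in treated libraries, a range without overlap. This ratio, too, was picked after its values were seen. Untreated A-5 had a ratio of 0.257 and B-4 one of 0.111.

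Dlx1 and Dlx2, which act in the upper jaw and in interneurons of the forebrain, showed no called difference. Dlx1 had 9.02 and 11.4 CPM at 0 μM and 9.95, 7.22 and 10.3 CPM on day 5 and 7.35, 11.6 and 7.03 CPM on day 10 in treated cells. The groups overlapped, and treated cells differed by -0.21 on the log2 scale (95% interval -0.71 to 0.29, adjusted p = 0.477 from edgeR). Dlx2 had 4.17 and 5.88 CPM at 0 μM and 8.39, 5.04 and 7.26 CPM on day 5 and 6.64, 7.88 and 5.30 CPM on day 10. It lay above 0 μM of its day in 5 of 6 treated libraries, with a log2 fold change of 0.42 (95% interval -0.13 to 0.97, adjusted p = 0.191 from edgeR). Within the pair, the FPKM ratio of Dlx2 to Dlx1 was 0.768 and 0.855 at 0 μM and between 1.12 and 1.5 in treated libraries, also picked after its values were seen.

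Dlx3 and Dlx4 were near the limit of detection. Dlx3 had 8 counts at 0 μM on day 5 and 4 on day 10. Treated libraries held 8, 14 and 7 counts on day 5 and 8, 27 and 44 counts on day 10, which is 0.231 to 0.848 CPM, all above the 0.157 and 0.126 CPM at 0 μM. Its log2 fold change of 1.30 ± 0.58 (95% interval 0.01 to 2.59) had an unadjusted p = 0.0481 and an adjusted p = 0.0942 from edgeR, and was not called. It was 0.60 (adjusted p = 0.602, edgeR) when the day 10 library at 0 μM was left out and 2.15 (adjusted p = 0.0758, edgeR) when that of day 5 was. Treated libraries were wholly above 0 μM for 27.8% of all genes tested. Untreated A-5 held 3 counts of Dlx3 and B-4 held 0, which allows up to 3 counts, or 0.101 CPM by its total. With these libraries as the controls, Dlx3 missed the call at a log2 difference of 2.97 ± 0.99 (edgeR, adjusted p = 0.0616).

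Dlx4 had 0.822 and 0.503 CPM at 0 μM and between 0.514 and 1.23 CPM in treated libraries, which overlapped. For Dlx4 the log2 fold change was 0.31 ± 0.44 (95% interval -0.67 to 1.29, adjusted p = 0.594 from edgeR). Against A-5 and B-4 it was 1.84 ± 0.60, which was not called (adjusted p = 0.0561, edgeR). At 13 to 64 counts per treated library, a 2-fold change was within the interval. Antisense genes overlap Dlx1 (Dlx1as), Dlx6 (Dlx6os1) and Dlx4 (Dlx4os) in the annotation. By identifier they were not among the genes of the deposited table, so they could not be analysed. Since the setting for strand in the counting is not given in the sources used here, reads from these antisense genes cannot be told apart from those of Dlx1, Dlx6 and Dlx4.

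**Figure D3:**
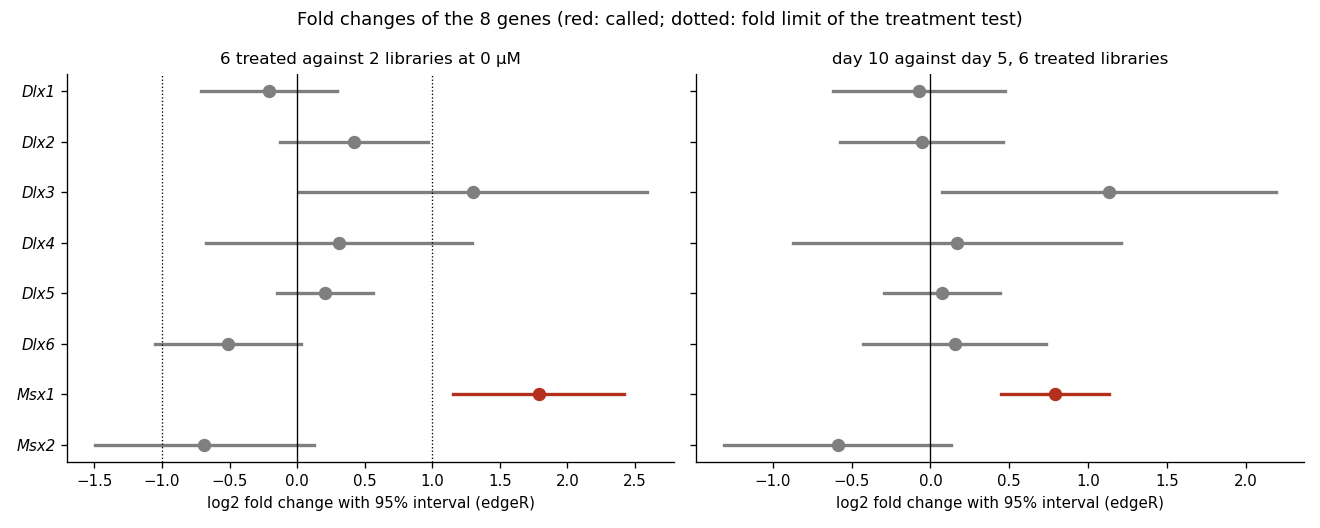
Log2 fold changes (horizontal axis) of the 8 genes with 95% intervals from edgeR, for treated cells against 0 μM (left, with the fold limit dotted) and for day 10 against day 5 in treated cells (right). Msx1 is the called gene in both, at 1.79 and 0.79; the widest interval on the left is that of Dlx3.

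The 3 doses were matched between days, so that the 6 treated libraries could be compared by time. Msx1 was higher on day 10, with 20.8 ± 5.61 CPM (SD, n = 3) against 11.8 ± 2.38 CPM (SD, n = 3) on day 5. At each dose the day 10 library was above the day 5 library, and all 3 values of day 10 exceeded all 3 of day 5. With dose as a covariate, the log2 difference was 0.79 ± 0.15 (95% interval 0.45 to 1.13, adjusted p = 0.038 from edgeR). Msx1 was the 1 of 8 members called, where 2.05% of 16664 genes were called, 249 (1.49%) as higher and 92 (0.552%) as lower on day 10. With library totals in place of TMM that split turned to 161 higher and 256 lower, and Msx1, at 0.66, was not called (adjusted p = 0.0643, edgeR).

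Msx1 also lost this call in edgeR when any of 4 libraries was left out, with adjusted p-values of 0.137 for 100 μM on day 5, 0.183 for 200 μM on day 5, 0.138 for 100 μM on day 10 and 0.238 for 200 μM on day 10. Dlx3 had a log2 difference of 1.13 (adjusted p = 0.269) and Msx2 one of -0.59 (adjusted p = 0.406, edgeR). The other 5 members had log2 differences between -0.07 and 0.17.

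Whether the effect of β-ecdysterone itself differed between the days was asked with 4 groups, 0 μM and treated on each day. None of the 8 members was called by edgeR or by DESeq2, and 1 had an unadjusted p under 0.05 in edgeR. That one was Msx2, whose log2 fold change was lower on day 10 by a difference of -1.41 ± 0.60 (unadjusted p = 0.0409, adjusted p = 0.58 from edgeR). Msx1 had a difference of 0.92 (95% interval -0.08 to 1.92, adjusted p = 0.64 from edgeR). Across 17799 genes 0.0112% were called, and each day had 1 library at 0 μM.

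Along the doses, Msx1 had the steepest slope relative to its error, 0.30 ± 0.09 on the log2 scale per 50 μM (unadjusted p = 0.0116, adjusted p = 0.997 from edgeR). Its CPM was highest at 200 μM on day 10 and at 150 μM on day 5. The slopes of the other 7 members lay between -0.13 and 0.37. None of the 8 was called by edgeR or DESeq2, 1 had an unadjusted p under 0.05 in edgeR, and 0.006% of 16664 genes were called.

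The summed FPKM of the 8 genes was 25.3 and 28.5 at 0 μM and between 26.3 and 39.4 in treated libraries. Within this sum, Dlx5 made up 56.2% to 57.8% at 0 μM and 48.2% to 56.4% in treated libraries. The share of Msx1 was 6.95% to 8.48% at 0 μM and 12.7% to 31.3% in treated libraries. The share of Dlx6 was 10.9% to 12.5% at 0 μM and 5.39% to 7.62% in treated libraries. A treated library thus held relatively more Msx1 and less Dlx6 than a 0 μM library, and Dlx5 was the main component in both. Untreated A-5 had 8.97% Msx1 and 14.9% Dlx6, and B-4 had 16.7% and 7.20%.

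**Figure D4:**
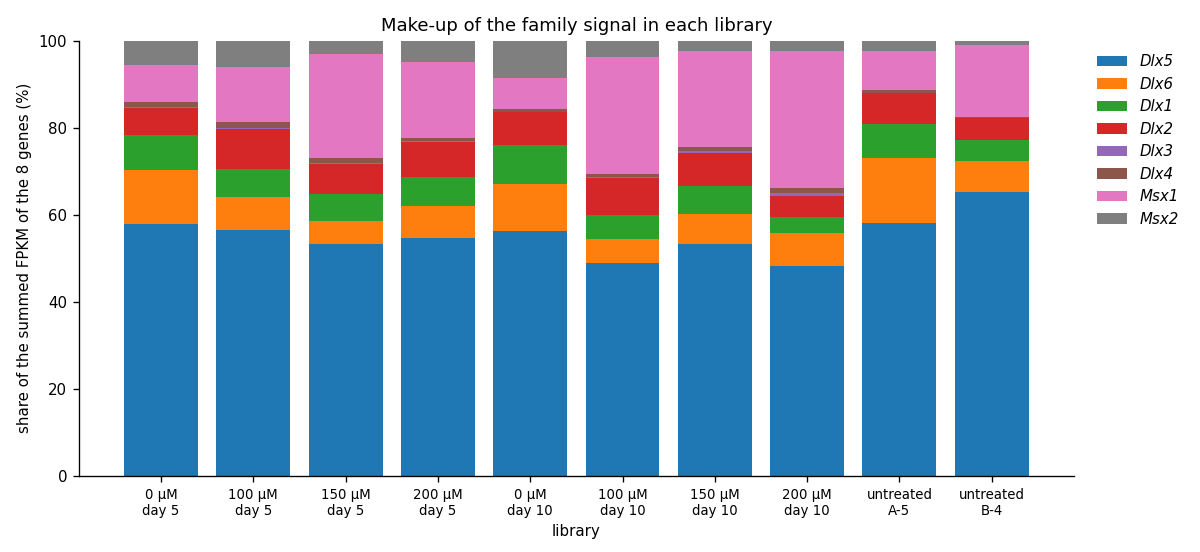
Share (%) of each gene in the summed FPKM of the 8 genes, 1 stacked bar per library. The Msx1 segment is 6.95% to 8.48% at 0 μM and 12.7% to 31.3% in treated libraries, and Dlx5 is the main segment throughout, at 48.2% to 65.1%.

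Among 44 other homeobox genes of skull and limb mesenchyme, 34 were tested, and 5 were called as higher and 2 as lower. Across all genes tested 13.4% were called as higher and 5.98% as lower, so these counts were near the background. The median log2 fold change of the list was -0.01, compared to 0.05 over all genes. Irx5, a patterning factor of the Iroquois family, had the largest rise with a mean of at least 1 CPM, from 28.8 CPM at 0 μM to 146 ± 43.4 CPM (SD, n = 6) in treated cells, a log2 fold change of 2.30 (adjusted p = 1.2e-04 from edgeR). Alx4, which patterns the skull vault, rose from 81.1 CPM to 210.2 ± 17.4 CPM (log2 fold change 1.36), and Gsc from 1.88 CPM to 4.61 ± 1.09 CPM (1.25). Irx1 fell from 54.8 CPM to 20.4 ± 4.62 CPM (log2 fold change -1.47) and Lhx6, a jaw and tooth factor, from 20.9 CPM to 9.27 ± 1.10 CPM (-1.19). Against A-5 and B-4 these 4 genes were not called. Alx4 was then under the fold limit at 0.94 (adjusted p = 0.00286, edgeR), and the log2 differences were 0.85 for Gsc (adjusted p = 0.214), -0.51 for Irx1 (adjusted p = 0.107) and -0.50 for Lhx6 (adjusted p = 0.342), all from edgeR. Gsc was also under the fold limit, at 0.94, when the day 5 library at 0 μM was left out. In 14 of the 44 genes, Msx3 among them, FPKM stayed under 1 in all 8 libraries.

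**Figure D5:**
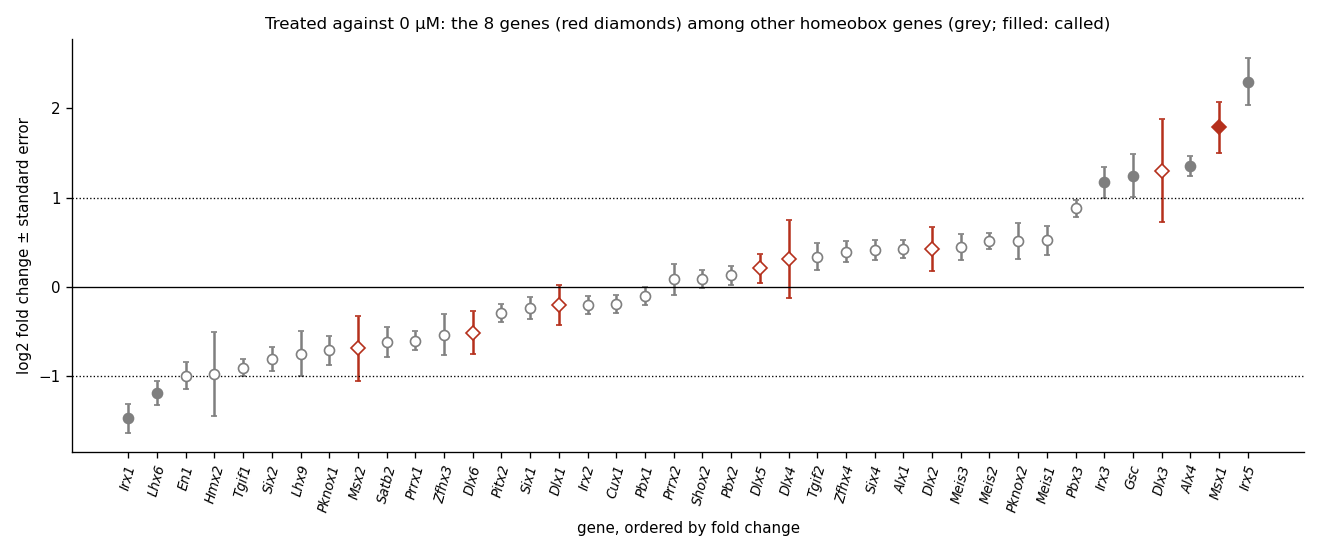
Log2 fold change with standard error (vertical axis) of the 8 Dlx and Msx genes (red diamonds) and of 32 other homeobox genes with a mean of at least 1 CPM (grey circles), in order of fold change; filled symbols were called. Msx1 (1.79) stands next to Irx5 (2.30) and Alx4 (1.36) at the upper end, and Irx1 (-1.47) and Lhx6 (-1.19) stand at the lower end.

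Of 13 genes known as targets of Dlx or Msx proteins in bone, tooth and jaw, 10 were tested. Of these, 4 were called as higher and 1 as lower, where the shares over all genes tested were 13.4% and 5.98%. The targets had a median log2 fold change of 0.81. The highest of them in fold change were Alpl, Ibsp and Sp7. Alpl reached 43.1 ± 19.5 CPM (SD, n = 6) under treatment, against 0 and 2 counts at 0 μM. Ibsp, which encodes bone sialoprotein, went from 0.757 CPM at 0 μM to 382 ± 338 CPM, and Sp7, the gene of osterix, from 5.50 CPM to 81.5 ± 34.3 CPM. Runx2, the regulator above them, rose from 90.5 CPM to 223 ± 28.5 CPM. In FPKM, Runx2 averaged 15.5 at 0 μM and 37.7 in treated libraries, and it had 19.6 in untreated A-5 and 32.6 in untreated B-4. Dmp1, a gene of osteocytes, was called as lower (log2 fold change -2.10), but at 0 μM it had 4.09 CPM on day 5 and 1.76 CPM on day 10, and leaving out the day 5 library at 0 μM ended the call (-0.71, edgeR adjusted p = 0.482). In the list of osteoblast identity, which shares Runx2, Sp7, Alpl, Ibsp and others with the targets, 5 of 12 genes were called as higher and 0 as lower.

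Of 26 genes of BMP signalling, the pathway upstream of Dlx5 and both Msx genes, 18 were tested, with a median log2 fold change of 0.13. For 9 of the 26, FPKM stayed under 1 in all 8 libraries with a dose. Among them were Bmp2, Bmp5, Bmp6, Bmp7, Gdf5 and Bambi, and Nog, which was at 0 counts. In this list 1 gene was called as higher and 1 as lower, against 13.4% and 5.98% of all genes tested. Bambi, a decoy receptor, had a mean of 0.506 CPM at 0 μM and 1.19 ± 0.336 CPM in treated cells. Grem1, a secreted BMP antagonist, fell from 68.6 CPM to 13.7 ± 3.07 CPM (log2 fold change -2.33, adjusted p = 1.2e-05 from edgeR). Of 8 partners and modifiers of Dlx and Msx proteins, 1 was called, where 19.4% of all genes tested were. It was Tle1, a corepressor of the Groucho family, which rose from 22.8 CPM to 57.7 ± 5.88 CPM (log2 fold change 1.32), although against A-5 and B-4 the value was 0.13 (adjusted p = 0.782, edgeR).

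Markers of other cell types were summed in each library. The sum over 5 endothelial genes was 2.20 to 2.68 CPM in treated libraries and 0.607 to 0.818 CPM at 0 μM, and that over 6 skeletal muscle genes was 4.86 to 9.19 CPM and 1.83 to 2.27 CPM. For 7 adipocyte genes it was 2.72 to 5.66 CPM and 1.95 to 2.13 CPM, and for 6 neuronal genes 3.00 to 8.19 CPM and 17.4 to 18.1 CPM. FPKM stayed under 1 in all 8 libraries for 5 endothelial, 5 muscle, 6 adipocyte, 5 neuronal, 3 cartilage, 3 macrophage and 6 epithelial genes. At 0 μM the neuronal sum was mostly Tubb3, at 15.5 CPM, which averaged 3.93 CPM in treated libraries. Des averaged 1.77 CPM at 0 μM and 5.28 CPM in treated libraries, and Fabp4 1.78 and 2.82 CPM. Among all single genes tested, treated and 0 μM libraries did not overlap for 52.6%. The groups did not overlap in the endothelial, muscle, adipocyte and neuronal lists. They overlapped for 6 cartilage genes (87.2 to 168.6 CPM and 92.2 to 104.6 CPM), 6 macrophage genes (35.0 to 67.2 CPM and 27.8 to 40.2 CPM) and 6 epithelial genes (0.277 to 1.39 CPM and 0.409 to 0.587 CPM), of which Krt18 was at 0 counts in all 8 libraries. Over all genes tested 13.4% were called as higher and 5.98% as lower. Marker genes called as higher and lower numbered 2 and 0 of 3 tested for endothelium, 2 and 0 of 3 for muscle, 1 and 0 of 4 for adipocytes, 0 and 1 of 3 for neurons, 1 and 0 of 5 for cartilage, 1 and 1 of 4 for macrophages and 1 and 0 of 2 for epithelium. Their part in the rise of Msx1 was not tested.

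The nearest protein-coding neighbours on each side of the 5 loci were 10 genes, of which 7 were tested. None was called as higher and Itga6, which lies 198.9 kb from the Dlx1 and Dlx2 pair, was called as lower (log2 fold change -1.97, adjusted p = 0.00111 from edgeR). Among all genes tested the shares were 13.4% called as higher and 5.98% as lower. Stx18, the neighbour 214.2 kb from Msx1, had a log2 fold change of 0.86 (adjusted p = 7.7e-04), under the fold limit. Itga3, 43.3 kb from Dlx3, had one of -0.95 (adjusted p = 0.00205). Metap1d (0.26), Sem1 (0.04), Sdhaf3 (0.34) and Sptlc1 (0.01) had adjusted p-values above 0.05 in edgeR, and Tac4, Cytl1 and Drd1 were too low to be tested.

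The genes most like each member over the 10 libraries were sought by Pearson correlation of log2 CPM among 10393 genes, as a description only, since the libraries fall into clusters by treatment. The nearest to Msx1 were Inpp5a (r = 0.980), Efhd1 (0.977) and Bpifb1 (0.975). Bpifb1 had 9.59 FPKM in treated cells on average, was listed at 0 in both 0 μM libraries, and had 0.402 FPKM in untreated B-4. The nearest to Msx2 were Fgd1 (0.986), Dpagt1 (0.978) and Yeats4 (0.970), which like Msx2 were lowest in the untreated libraries on average. For Dlx5 they were Acad10 (0.904), Mgmt (0.891) and Abhd11 (0.875), and for Dlx6 Ulk3 (0.943), Slc9a3r1 (0.916) and Mtcl1 (0.908). For Dlx1 they were Cfap97 (0.934), Klf11 (0.874) and Vim (0.872), and for Dlx2 Dpep2 (0.907), Flt1 (0.897) and C4b (0.890). Most of the genes named here were no longer among the nearest when the untreated libraries were left out. Dlx3, Dlx4, Dlx6 and Msx2 averaged under 5 CPM, so they were not among the genes compared and could not appear as nearest. Of Dlx1, Dlx2, Dlx5 and Msx1, none was among the 3 genes most like another member.

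Among the members themselves, the correlation over the 10 libraries was 0.63 for Dlx1 and Dlx2, 0.12 for Dlx5 and Dlx6, and -0.19 for Msx1 and Msx2. The highest of the 15 pairs of the 6 members with a mean FPKM of at least 1 was 0.70 for Dlx1 and Msx2, and the lowest was -0.52 for Dlx6 and Msx1. These points share libraries, depth and scaling, and no test was made.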

How the data were processed

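RNA of 10 libraries was enriched on oligo(dT) beads, prepared with a TruSeq kit and sequenced by the authors. In 1 table, the authors deposited raw read counts for each gene and library together with FPKM, scaled by them to transcript length and library size. The submitters' processing notes name HISAT2 2.0.4 and GATK 3.2-2; the counting program, the genome build and the annotation are not given in the sources used here. Columns of the authors' own edgeR comparisons, Gene Ontology terms and pathways were not used. The labels give 1 library per dose and day, although the methods state 3 for the extraction, so p-values measure the spread between these libraries, which may be technical.

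Tests were run in R 4.3.3 with edgeR 4.0.16, DESeq2 1.42.0 and limma 3.58.1. The main comparison set 6 treated libraries against 2 at 0 μM with edgeR's quasi-likelihood test, TMM, filterByExpr and day as a covariate. Adjusted p-values are Benjamini-Hochberg values over all genes tested. Day (with dose as a covariate) and dose (with day) were tested in the 6 treated libraries, and the difference between days in 4 groups. Scripts were tested on simulated data. Poisson intervals (95%) and the floor of 3 counts cover counting error only. Positions are those of GENCODE M21 by Ensembl identifier, which all 8 members matched. RefSeq promoters were used for 4 members (Dlx1, Dlx2, Msx1 and Msx2), and homeobox sequences are given for Dlx genes only.

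The members and lists (other homeobox genes, targets, BMP signalling, partners, osteoblast identity and markers of 7 other cell types) were chosen with earlier results of these data known. Besides the members, the rule named up to 3 called genes per list and direction with the largest fold change (at least 1 CPM on average), the 3 genes most correlated with each member of at least 1 FPKM (among genes of at least 5 CPM, prior count 2), and the nearest neighbours. Runx2, Bambi, Col1a1 and Msx3 were added after their values were seen. Alternatives were DESeq2, limma on log2(FPKM + 1), other scalings, filters, covariates, limits and controls, and each library left out in turn. Depth class (above or below 40000000 counts) was added after seeing the data.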

Additional observations from a re-analysis of the deposited data

Results flagged for a closer look

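Msx1 and Dlx5 were picked out in untreated library B-4, which was not part of the main comparisons. In B-4 Msx1 had 10.0 CPM, above the 4.54 and 4.22 CPM of the 0 μM libraries and between the 9.12 and 13.7 CPM of treated libraries of day 5, and its 95% Poisson interval lay above theirs. Dlx5 had 28.0 CPM in B-4, above 22.0 and 24.0 CPM at 0 μM. In untreated A-5 the values were 4.66 CPM for Msx1 and 21.4 CPM for Dlx5. The labels give no time for these libraries, and the intervals cover counting error only.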

How the results depend on the processing

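Of 527 values recomputed under alternatives, 490 kept their direction and their side of the limits, 22 fell short of the limits, 1 passed them and 14 changed sign. Msx1 stayed called against 0 μM in 21 of 22 alternatives (1.36 to 2.29 with a library left out). The number of members called moved from 1 to 0 when the untreated libraries replaced those at 0 μM and was 1 to 2 with a library left out. For day 10 against day 5 it was 0 with library totals and without the dose covariate, and 0 to 1 with a library left out. Of 18 most similar genes, 2 remained in the 8 libraries with a dose and a day. With the untreated libraries replacing or joining those at 0 μM, the log2 fold change turned to 0.28 and 0.019 for Dlx1 and to 1.49 and 0.075 for Msx2. Left-out libraries spanned log2 values of -0.086 to 0.81 for Dlx4 and -1.32 to 0.080 for Msx2 against 0 μM, -0.17 to 0.11 for Dlx5 between days' effects, -0.049 to 0.28 for Dlx5 by day (-0.056 with library totals), and slopes of -0.31 to 0.13 for Msx2 and -0.036 to 0.25 for Dlx5. The causes were not tested. By replicate number, no paired analysis was possible because the labels give none. Treated libraries were paired by dose between days, and with dose as a block 1 member, Msx1, was called by day (0.80, adjusted p = 0.0335, edgeR).

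Counts over all genes moved too. Higher and lower genes against 0 μM (2254 and 1005) became 526 and 612 with limma, 1142 and 428 with glmTreat, 3790 and 3490 with no fold limit, 1099 and 737 with at least 10 counts in every library, 1493 and 822 with Ensembl genes only, and 1078 and 460 or 1286 and 453 when the untreated libraries replaced or joined the 0 μM libraries. By day (249 and 92) they were 622 and 450 with DESeq2, 902 and 667 with at least 1 count in total, and 455 and 227 with dose as a block. The difference between days (0 and 2) gave 53 and 25 with DESeq2 and 77 and 23 with at least 1 count. Low counts of Dlx3 and Dlx4 limit their intervals.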
